A study of Mus musculus with 6 samples.

Results

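Cyclins and the cyclin-dependent kinases (CDKs) that they switch on drive cells through division, and 10 of these genes were followed in hearts of Rbpms knockout and wildtype mice. They were the rows of the deposited table with the symbols Ccnd1, Ccnd2, Ccnd3, Ccne1, Ccne2, Ccna2, Ccnb1, Ccnb2, Cdk1 and Cdk2, chosen by name. All 10 were found among 20893 genes, and all 10 were among the 14974 genes that passed the filter for testing, a value of 10 or more in 3 or more libraries. The 3 knockout libraries came from hearts of germline knockout mutants of Rbpms (labelled R1KO), and the 3 wildtype libraries from wildtype hearts, described as littermate controls. Both groups carry the strain label C57BL6/J, and the age is given as embryonic in one description and neonatal in another, so the stage is not settled here. The labels name the tissue as heart, with no part of the heart and no sorting of cells. Whether every library is a different animal is not stated in the labels, so the p-values cover spread among these 6 libraries, which may be technical in part. By Xist and Y-linked reads each group held a female library beside male ones, so neither group came from a single animal.

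A CDK is inactive until a cyclin binds it. D-type cyclins act with Cdk4 and Cdk6 in G1 and start the phosphorylation of the retinoblastoma protein, which frees E2F factors to switch on genes of DNA synthesis. E-type cyclins with Cdk2 take the cell into S phase, cyclin A2 serves with Cdk2 and then Cdk1 through S phase and G2, and B-type cyclins with Cdk1 bring about mitosis. Heart muscle cells divide in the fetus and leave the cell cycle soon after birth, so these genes are known to decline in the early postnatal heart.

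The start regions of the mitotic members are shown first because their values went up and down together from library to library. The RefSeq table of promoters (build GRCm38.p6, not the mm39 build of the expression table) held 6 of the 10 members. It did not hold Ccnd1, Ccnd2, Ccne2 and Ccna2. Each line gives the 250 bases before the annotated start, 5′ to 3′, and capitals mark matches on either strand to the CCAAT box, to the 2 cell cycle words and to the E2F consensus that the next paragraph spells out. The first 3 lines are mitotic members, and Ccne1 and Cdk2, the members of the G1 to S step with the smallest p, stand beside them.
Ccnb1 (chr13:100786487-100786736, reverse strand): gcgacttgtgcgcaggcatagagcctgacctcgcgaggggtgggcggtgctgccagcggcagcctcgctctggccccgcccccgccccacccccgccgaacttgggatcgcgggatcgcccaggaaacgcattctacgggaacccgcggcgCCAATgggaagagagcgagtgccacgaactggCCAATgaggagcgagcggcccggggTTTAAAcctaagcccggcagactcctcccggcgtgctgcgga
Ccnb2 (chr9:70421555-70421804, reverse strand): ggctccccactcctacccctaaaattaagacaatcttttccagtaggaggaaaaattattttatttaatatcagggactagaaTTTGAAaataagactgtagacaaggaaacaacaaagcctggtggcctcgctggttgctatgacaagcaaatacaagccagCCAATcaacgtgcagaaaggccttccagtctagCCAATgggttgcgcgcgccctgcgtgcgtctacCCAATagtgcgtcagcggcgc
Cdk1 (chr10:69352913-69353162, reverse strand): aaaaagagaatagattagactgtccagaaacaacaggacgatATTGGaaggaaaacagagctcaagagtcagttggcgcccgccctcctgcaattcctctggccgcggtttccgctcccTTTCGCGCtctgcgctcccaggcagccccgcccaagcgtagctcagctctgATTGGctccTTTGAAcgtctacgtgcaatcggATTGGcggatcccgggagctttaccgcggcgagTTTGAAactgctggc
Ccne1 (chr7:38107491-38107740, reverse strand): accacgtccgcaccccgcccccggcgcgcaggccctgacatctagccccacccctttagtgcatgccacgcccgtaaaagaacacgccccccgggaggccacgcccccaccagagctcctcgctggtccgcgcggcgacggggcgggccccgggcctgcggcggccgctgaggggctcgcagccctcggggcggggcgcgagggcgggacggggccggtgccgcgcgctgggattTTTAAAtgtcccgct
Cdk2 (chr10:128705052-128705301, reverse strand): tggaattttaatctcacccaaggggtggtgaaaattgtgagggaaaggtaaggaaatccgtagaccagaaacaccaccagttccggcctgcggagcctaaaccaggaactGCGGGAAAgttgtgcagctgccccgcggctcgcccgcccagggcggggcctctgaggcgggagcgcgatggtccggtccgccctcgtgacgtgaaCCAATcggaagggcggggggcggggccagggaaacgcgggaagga

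CCAAT, the word bound by the factor NF-Y, occurred at 2 places in Ccnb1, 3 in Ccnb2 and 3 in Cdk1. It occurred once in Cdk2 and had no match in Ccne1. Ccnd3, which is not printed, has 2 windows, and the word occurred once in the second, 108 bases before the start. Of all 32851 windows of 300 bases in the table (250 before and 50 after a start), 37.4% held the word and 11.7% held it at 2 or more places. The first cell cycle word, TTTGAA, a core of the cell cycle homology region, lay 71 and 15 bases before the start of Cdk1 and 167 bases before that of Ccnb2, with a further match 5 bases after the start of Ccnb2 (not printed). That word was in 17.9% of windows. The second, TTTAAA, which reads the same on both strands, was found in Ccnb1 and Ccne1 and in 13.2% of windows. The E2F consensus was searched as TTTCCCGC, TTTCGCGC, TTTGCCGC and TTTGGCGC. A match to it lay 131 bases before the start of Cdk1 and, on the other strand, 140 bases before that of Cdk2, against 2.26% of windows. These matches are descriptions of the letters and no evidence of binding.

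Some facts of the libraries bear on every value below. The values are read numbers that the authors scaled per library and rounded, and 4163230 to 5805696 reads per library were recovered from the scaling. Rbpms itself was lower in the knockout, with values of 375, 340 and 507, listed by replicate here and below, against wildtype values of 1182, 1176 and 1317. The fitted knockout level was 32.9% of wildtype (log2 -1.61, adjusted p = 0.0124 in limma), and the adjusted p was 0.0523, 0.0868, 0.0967 and 0.133 without knockout replicate 1 and wildtype replicates 1, 2 and 3. Its paralog Rbpms2 was not called (log2 -0.08, adjusted p = 0.627 in limma). Knockout replicate 3 stood apart from all other libraries. The SD of log2 differences over tested genes was 0.496 to 0.592 in the 5 pairs with it and 0.318 to 0.471 in the other 10 pairs. Its summed value of 8 epicardial markers was 1013 against 1764 to 1974 in the other libraries, and that of 8 erythroid markers was 2144 against 741 to 957. It was also 1 of 2 libraries with high Xist and next to no Y-linked reads, together with wildtype replicate 1. None of the listed epicardial and erythroid markers found in the table was at 0 in any library. Cardiomyocyte markers summed to 22882 to 25933 in the knockout and 24184 to 26501 in the wildtype. Their recovered reads per exon base ran from 0.134 (Ryr2) to 0.919 (Actc1), where the highest of all genes was 0.925. Whether an upper limit on such values compresses these sums was not tested, so similar sums need not mean similar cardiomyocyte content. Endothelial marker sums did not overlap between the groups (8191 to 8626 in the knockout and 7585 to 7845 in the wildtype). Neither did macrophage and leukocyte sums (1417 to 1721 and 1235 to 1360), and 0 markers of either list were called by limma. Markers went both ways, with 6 endothelial fold changes above 0 and 2 below, and 5 and 3 in the macrophage and leukocyte list. Npr3 had 910, 619 and 996 against 502, 774 and 459, and Cdh5 had 1707, 1688 and 1642 against 1722, 1616 and 1838. Lyve1 was higher in the knockout (559, 379 and 545 against 265, 321 and 251). Cd68 was lower (86, 85 and 73 against 95, 101 and 101). Smooth muscle and pericyte sums overlapped (3947 to 4432 and 4331 to 4801), with median log2 deviations of -0.36, -0.24 and -0.32 in knockout replicates 1, 2 and 3. The part of these differences in the results was not tested. In whole hearts, fewer dividing cells and less RNA per cell cannot be told apart.

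None of the 10 members passed the test over all genes, where 141 of 14974 genes (0.942%) did (limma, Benjamini-Hochberg adjusted p under 0.05). At an unadjusted p under 0.05 there were 3 members (Cdk2, Ccne1 and Ccne2) beside 16.4% of all genes, and voom on recovered reads also called 0 members. The groups did not overlap in 2 members, Ccne1 and Cdk2, both lower in the knockout. That arrangement was found in 10.9% of all genes, and 11.0% had all knockout libraries above all wildtype libraries, as 0 members did. Fold changes of 8 members were below 0, and the median of the 10 was -0.21 on the log2 scale, where the median of all tested genes was -0.001. The plot of member values shows each library.

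**Figure D1:**
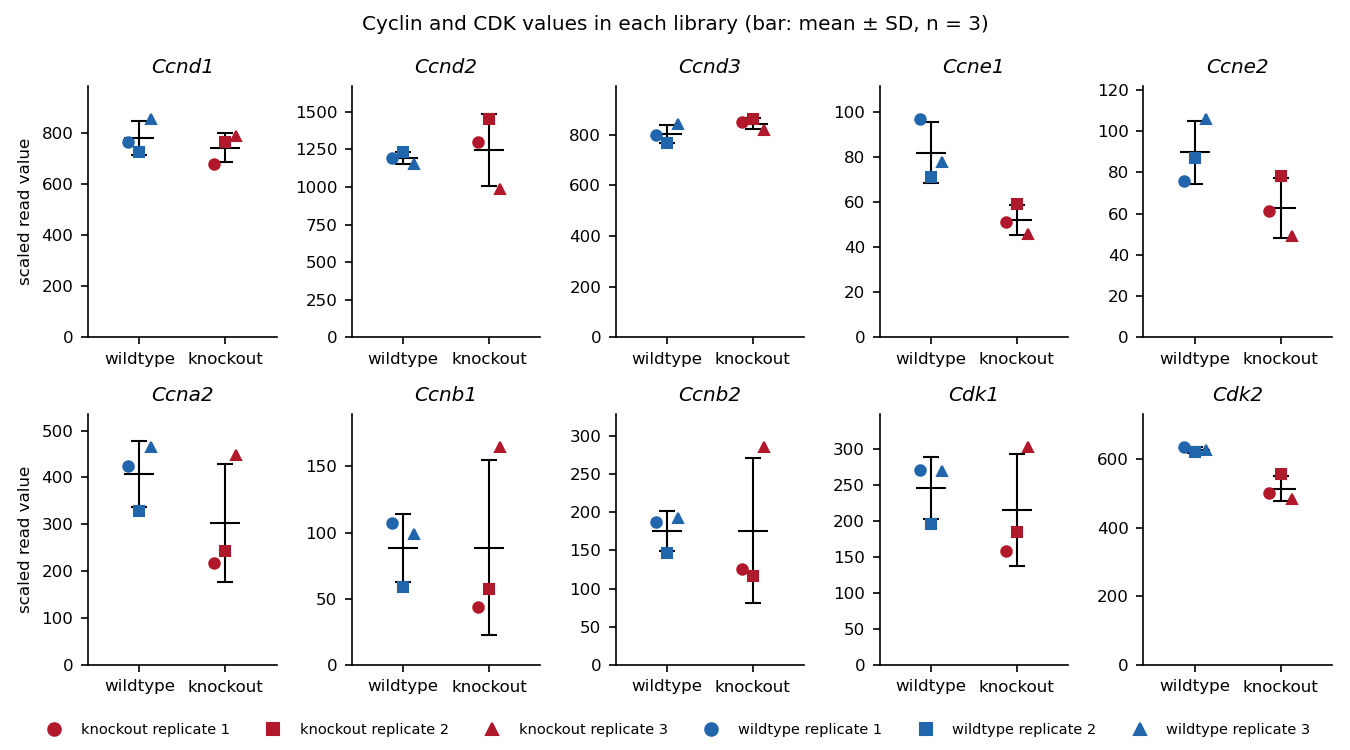
Scaled read values of the 10 genes in each library, in 1 panel per gene with its own vertical axis from 0; points are libraries, the horizontal mark is the mean and the bar the SD (n = 3 per group). Knockout replicate 3 (red triangle) was the highest library for Ccnb1, Ccnb2 and Cdk1 and the lowest for Ccnd2, Ccne1, Ccne2 and Cdk2.

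The D-type cyclins, which carry growth signals into G1, differed little between the groups. Ccnd1 (ENSMUSG00000070348, chr7:144483668-144493662, mm39) had values of 678, 765 and 788 in knockout replicates 1 to 3 and 765, 727 and 857 in wildtype replicates 1 to 3. The groups overlapped, and the log2 fold change was -0.07 ± 0.08 (SE), with a 95% interval of -0.26 to 0.12 and an adjusted p of 0.713 in limma. Ccnd3 (ENSMUSG00000034165, chr17:47815976-47910616) had 851, 863 and 818 against 797, 769 and 841. Here knockout replicates 1 and 2 lay above every wildtype library and replicate 3 did not. The interval of its log2 fold change ran from -0.07 to 0.21 around 0.07 (limma, adjusted p = 0.603).

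Ccnd2, the most abundant of the 10 by value, spread widely in the knockout. Ccnd2 (ENSMUSG00000000184, chr6:127102125-127129156) had 1300, 1454 and 985 against 1190, 1234 and 1156. Its knockout libraries therefore lay on both sides of the wildtype range, with an SD of 239 in the knockout and 39.1 in the wildtype. The log2 fold change was 0.04 with an interval of -0.26 to 0.34 (limma, adjusted p = 0.895). Without knockout replicate 3 it was 0.20 (adjusted p = 0.122), and without knockout replicate 2 it was -0.08 (adjusted p = 0.756). The intervals of the D-type cyclins with all libraries do not reach a halving or a doubling.

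The partner kinases of the D-type cyclins were also uncalled. Cdk4 had 655, 679 and 559 against 743, 659 and 765 (log2 -0.20, adjusted p = 0.32 in limma). Cdk6 had 669, 739 and 488 against 616, 625 and 586 (log2 0.03, adjusted p = 0.931 in limma). In both kinases knockout replicate 3 was the lowest of the 6 libraries, as it was for Ccnd2.

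The E-type cyclins, which open S phase, had the lowest fold changes of the 10 with all 6 libraries. Without knockout replicate 3, those of Ccna2 (-0.80) and Ccnb1 (-0.76) were lower than those of Ccne1 (-0.56) and Ccne2 (-0.36). Ccne1 (ENSMUSG00000002068, chr7:37797409-37806959) had 51, 59 and 46 in the knockout and 97, 71 and 78 in the wildtype. Every knockout library lay below every wildtype library. The means were 52 ± 6.56 and 82 ± 13.5 (SD, n = 3 each), and the fitted knockout level was 64.1% of wildtype. The log2 fold change was -0.64 ± 0.18 (SE), with a 95% interval of -1.06 to -0.23 and an adjusted p of 0.135 in limma. At about this many reads per library, counting error alone is large for both E-type cyclins.

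Ccne2 (ENSMUSG00000028212, chr4:11191351-11204779), the second E-type cyclin, had 61, 78 and 49 against 76, 87 and 106. Its groups overlapped through knockout replicate 2 alone, which lay just above wildtype replicate 1. The log2 fold change was -0.52 ± 0.21 (SE), with a 95% interval of -0.99 to -0.05 and an adjusted p of 0.252 in limma. Neither E-type cyclin was called when any library was left out, and their fold changes stayed below 0 throughout, from -0.74 to -0.43 for Ccne1 and from -0.69 to -0.36 for Ccne2 over 17 alternatives.

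Cdk2, the kinase that cyclins E and A bind, had the smallest p of the 10. Cdk2 (ENSMUSG00000025358, chr10:128533808-128540900) had 502, 555 and 483 in the knockout and 636, 619 and 625 in the wildtype. The groups were apart, with means of 513 ± 37.3 and 627 ± 8.62 (SD, n = 3 each), and the fitted knockout level was 81.8% of wildtype. The log2 fold change was -0.29 ± 0.07 (SE), with a 95% interval of -0.45 to -0.13 and an adjusted p of 0.0925 in limma. It was called without knockout replicate 2 (log2 -0.35, adjusted p = 0.0385), a fit that called 3.41% of all genes and 1 of the 10 members. Over 17 alternatives its adjusted p ran from 0.0385 to 0.391.

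The mitotic members split the knockout libraries. In Ccna2, Ccnb1, Ccnb2 and Cdk1, knockout replicates 1 and 2 lay below every wildtype library, while knockout replicate 3 was the highest of all 6 libraries for Ccnb1, Ccnb2 and Cdk1 and lay within the wildtype range for Ccna2. Ccna2 (ENSMUSG00000027715, chr3:36619014-36626299), the cyclin of S phase and G2, had 218, 243 and 448 against 425, 329 and 466. Its log2 fold change was -0.48 ± 0.29 (SE), with a 95% interval of -1.18 to 0.22 and an adjusted p of 0.464 in limma.

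Ccnb1 (ENSMUSG00000041431, chr13:100915158-100923078), the main cyclin of mitotic entry, had 44, 57 and 165 against 107, 59 and 99. The lowest and the highest of its 6 values were both in the knockout. Its group means were 88.7 ± 66.4 and 88.3 ± 25.7 (SD, n = 3 each), and the interval of the log2 fold change, -1.43 to 1.04, allows changes of more than 2-fold either way (limma, adjusted p = 0.883). Ccnb2 (ENSMUSG00000032218, chr9:70314974-70328829), a second mitotic cyclin, had 126, 116 and 286 against 187, 146 and 193. Its log2 fold change was -0.11 with an interval of -0.94 to 0.72 (limma, adjusted p = 0.903).

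Cdk1 (ENSMUSG00000019942, chr10:69170976-69188768), the kinase that A and B cyclins activate for mitosis, had 158, 184 and 303 against 271, 196 and 269. Its log2 fold change was -0.23 with an interval of -0.83 to 0.36 (limma, adjusted p = 0.701). On the log2 scale knockout replicates 1, 2 and 3 deviated from the wildtype mean of Ccnb1 by -0.94, -0.58 and 0.94, of Ccnb2 by -0.46, -0.58 and 0.71, of Cdk1 by -0.62, -0.40 and 0.32 and of Ccna2 by -0.88, -0.73 and 0.15. Wildtype replicate 2 was the lowest wildtype library for all 4 genes.

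**Figure D2:**
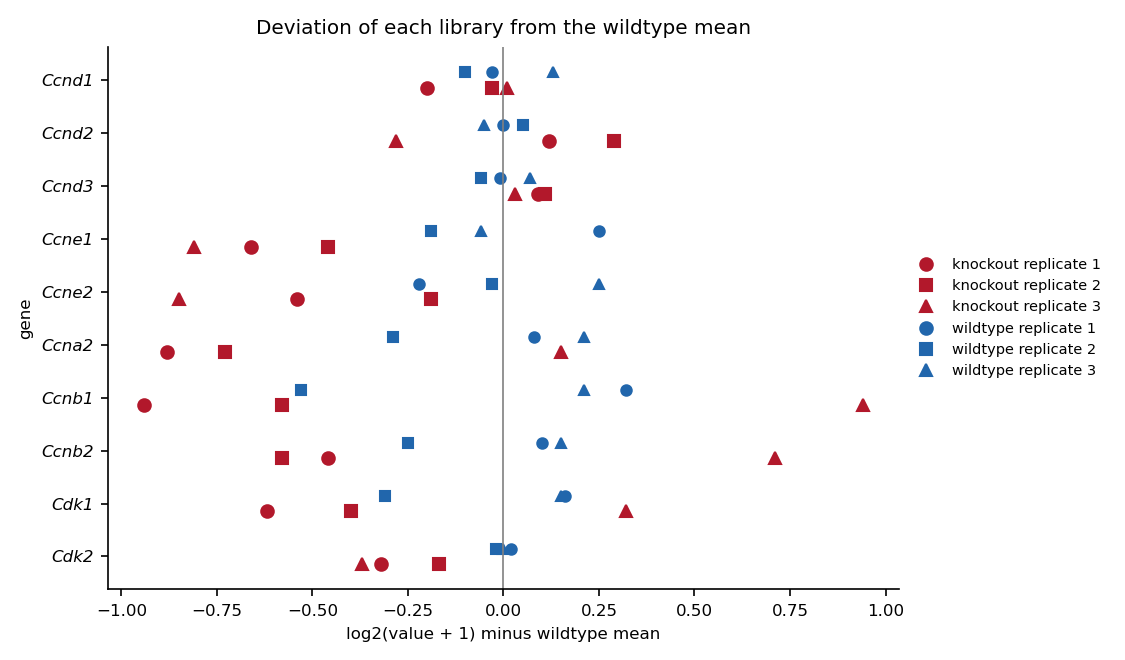
Deviation of each library from the wildtype mean of the same gene, on the log2(value + 1) scale, for the 10 genes (rows); red marks are knockout and blue marks wildtype libraries. Knockout replicate 3 (red triangle) lies to the right for Ccnb1 (0.94) and Ccnb2 (0.71) and to the left for Ccne1 (-0.81) and Ccne2 (-0.85).

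Without knockout replicate 3, a fit with 2 knockout and 3 wildtype libraries, 2 of the 10 members were called, both lower. That fit called 4.86% of all genes, and 2.6% of all genes as lower. Ccna2 fell by 0.80 ± 0.13 (SE) on the log2 scale, with an adjusted p of 0.00923 in limma, and Ccnb2 by 0.52 ± 0.14, with an adjusted p of 0.0433. Without knockout replicates 1 and 2 in turn, Ccna2 was at -0.29 and -0.36 (adjusted p = 0.726 and 0.651 in limma) and Cdk1 at -0.04 and -0.15 (0.969 and 0.845). Without knockout replicate 3, Cdk1 (-0.51, adjusted p = 0.0642), Cdk2 (-0.25, adjusted p = 0.0637), Ccne1 (-0.56, adjusted p = 0.106) and Ccnb1 (-0.76, adjusted p = 0.108) did not pass. In the male libraries alone, 2 knockout and 2 wildtype, 1 of the 10 was called (Ccna2, log2 -0.76, adjusted p = 0.0394), where 1.71% of all genes were. That subset was chosen after the sex of the libraries was read from the values, and it also leaves out knockout replicate 3. Sex and the other features of that library cannot be told apart within the knockout group, which holds no other female library.

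**Figure D3:**
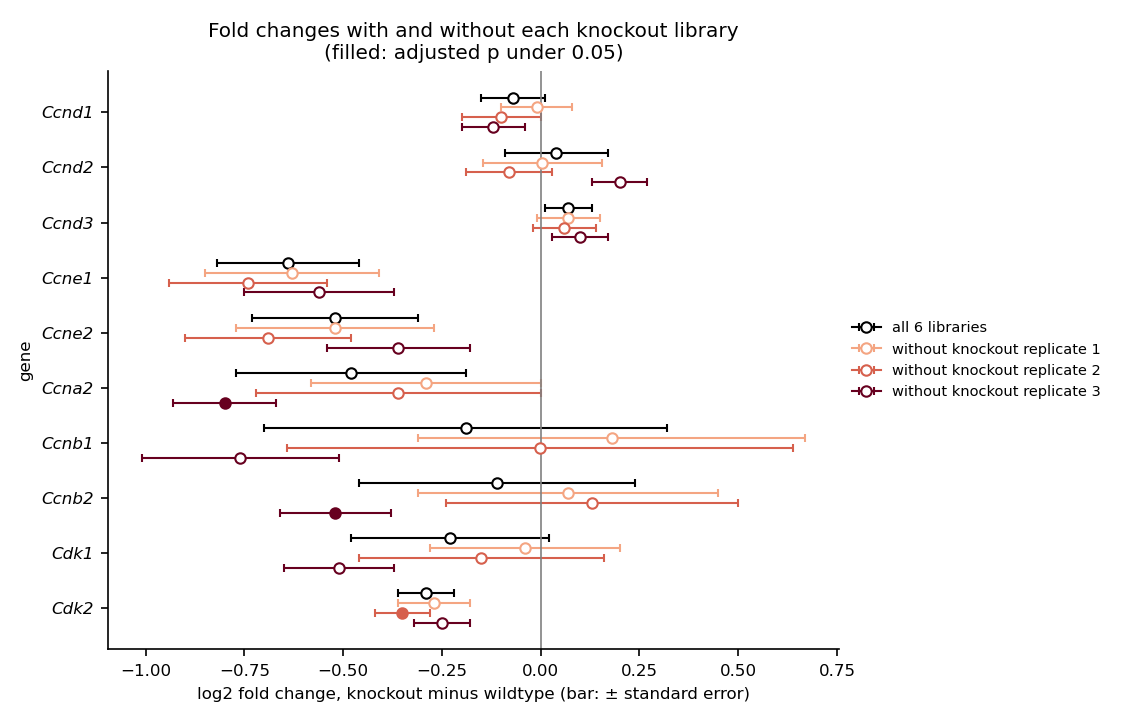
Log2 fold changes (knockout minus wildtype) of the 10 genes with all 6 libraries and without each knockout library; bars are ± 1 standard error and filled points have an adjusted p under 0.05. Ccnb1 moves from -0.76 without knockout replicate 3 to 0.18 without knockout replicate 1. Ccnd1, Ccne1, Ccne2, Ccna2, Cdk1 and Cdk2 stay to the left of 0 in every fit shown.

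Among the 12 proliferation markers outside the 10, knockout replicate 3 was the highest library for 5, the lowest for 3 and between the others for 4. It was lowest for Tk1 and for the replication helicase subunits Mcm2 (153 against 231 to 432 in the other libraries) and Mcm5 (120 against 154 to 337). It was highest for Mki67, the Ki-67 antigen of cycling cells (606 against 264 to 597), and for Plk1, Aurka, Bub1 and Birc5, which act in mitosis. Pcna, Rrm2, Top2a and Aurkb were neither highest nor lowest in it. No test of this arrangement was made, since a single library carries it.

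Levels were compared between genes per kilobase of the longest principal transcript in GENCODE M21, using wildtype means of the scaled values. Ccnd3 was highest at 380 ± 17.2 per kilobase (SD, n = 3), followed by Cdk2 at 280 ± 3.85. Ccnd1 (209 ± 17.9) and Ccnd2 (189 ± 6.18) came next, with Ccnd1 above Ccnd2 in 2 of 3 wildtype libraries. Ccna2 (137 ± 23.7) and Ccnb2 (115 ± 16.7) overlapped in their SDs, yet Ccna2 was above Ccnb2 in 3 of 3 libraries. At the low end Cdk1 had 56.1 ± 9.77, Ccne1 41 ± 6.73, Ccnb1 35.5 ± 10.3 and Ccne2 29.8 ± 5.05 per kilobase. Cdk1 was above Ccne1 in 3 of 3 libraries, while Ccne1 was above Ccnb1, and Ccnb1 above Ccne2, in 2 of 3 each. In the knockout Ccnd3 was again highest (399 ± 11 per kilobase) and Ccne2 lowest (20.8 ± 4.85), and Ccnb1 (35.6 ± 26.7) lay above Ccne1 (26 ± 3.28) by less than its SD. Knockout replicate 3 alone set that order, with a value of 165 for Ccnb1 and 46 for Ccne1. In knockout replicates 1 and 2 Ccnb1 had 44 and 57 over its longer transcript (2489 bases). Ccne1 had 51 and 59 there (2000 bases). The order depends on the transcript chosen, and no test was run on it.

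Genes that restrain CDKs held 1 called change. Of 7 tested CDK inhibitors and inhibitory kinases, 1 rose and 0 fell, where 0.942% of all genes were called. Cdkn1a encodes p21, an inhibitor of cyclin E and A complexes. It had 677, 571 and 807 in the knockout and 270, 322 and 293 in the wildtype. Its groups did not overlap, with the knockout higher, as in 11.0% of all genes. Its log2 fold change was 1.2 ± 0.13 (SE), and the adjusted p in limma was 0.0124, and over 17 alternatives the adjusted p ran from 0.000109 to 0.143. It lost the call without knockout replicate 1 (0.0671), without wildtype replicates 1, 2 and 3 (0.103, 0.0967 and 0.143) and with no trend and no robust moderation (0.0713), at fold changes of 1.14 to 1.27. Cdkn1b, which encodes p27, had a log2 fold change of -0.08, and Cdkn1c, which encodes p57, had 0.24, neither called. Without knockout replicate 3, 1 gene of this list rose and 2 fell, in a fit that called 4.86% of all genes, and 2.6% as lower.

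Among 25 tested regulators of cyclin gene transcription, 1 fell and 0 rose, where 0.942% of all genes were called. E2f8, an atypical E2F that represses E2F targets, had 60, 99 and 97 against 183, 172 and 168. Its groups did not overlap, with the knockout lower, as in 10.9% of all genes. Its log2 fold change was -1.06 ± 0.19 (SE), and the adjusted p in limma was 0.0472. The adjusted p was 0.0873 without knockout replicate 1 and 0.238, 0.145 and 0.223 without wildtype replicates 1, 2 and 3. It was 0.119 with a replicate block, 0.119 with no trend and no robust moderation and 0.0515 with a filter of 50. Fold changes of 15 of the 25 were below 0, with a median of -0.08, where 50.2% of all tested genes were below 0. Among those not called, E2f1 (-0.77), Rbl1, which encodes the pocket protein p107 (-0.75), and Mybl2, which encodes B-Myb (-0.91), had unadjusted p = 0.00215, 0.00273 and 0.00203 (limma, adjusted p = 0.0875, 0.0961 and 0.0859). These 3 were singled out after their values were seen. In 5 genes of this list a fall was called without knockout replicate 3, where 2.6% of all genes were called lower.

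Other cell cycle cyclins and CDK activators numbered 9 tested genes, of which 0 changed, and 7 had a fold change below 0 (median -0.15). Ccnf, the F-box protein cyclin F, had the smallest p among them at 49, 66 and 87 against 107, 87 and 119 (log2 -0.65, limma, adjusted p = 0.191). Without knockout replicate 3, 2 of the 9 were called lower, where 2.6% of all genes were. They were Ccnf (log2 -0.85, adjusted p = 0.0181 in limma) and Cdc25b (log2 -0.67, adjusted p = 0.00532). In the list of cyclin destruction 0 of 14 changed, with a median of -0.01. Its smallest p belonged to Skp2, which marks p27 for degradation, at 50, 57 and 45 against 78, 75 and 87 (log2 -0.65, limma, adjusted p = 0.104). The groups of Skp2 did not overlap, with the knockout lower, as in 10.9% of all genes. Of the proliferation markers 0 of 12 changed, with all 12 fold changes below 0 and a median of -0.63. Tk1, the thymidine kinase of S phase, came nearest at 107, 114 and 90 against 195, 148 and 186 (log2 -0.76, limma, adjusted p = 0.0537). It was called with no filter (0.035), with sex as a covariate (0.0481) and without knockout replicates 2 (0.0293) and 3 (0.0141). Tk1 was not called in the other 13 of 17 alternatives, with an adjusted p of up to 0.292 (without wildtype replicate 1). The median deviations of that list were -0.91, -0.61 and -0.11 in knockout replicates 1, 2 and 3. Called without knockout replicate 3 were 6 of its genes, all lower, where 2.6% of all genes were called lower.

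**Figure D4:**
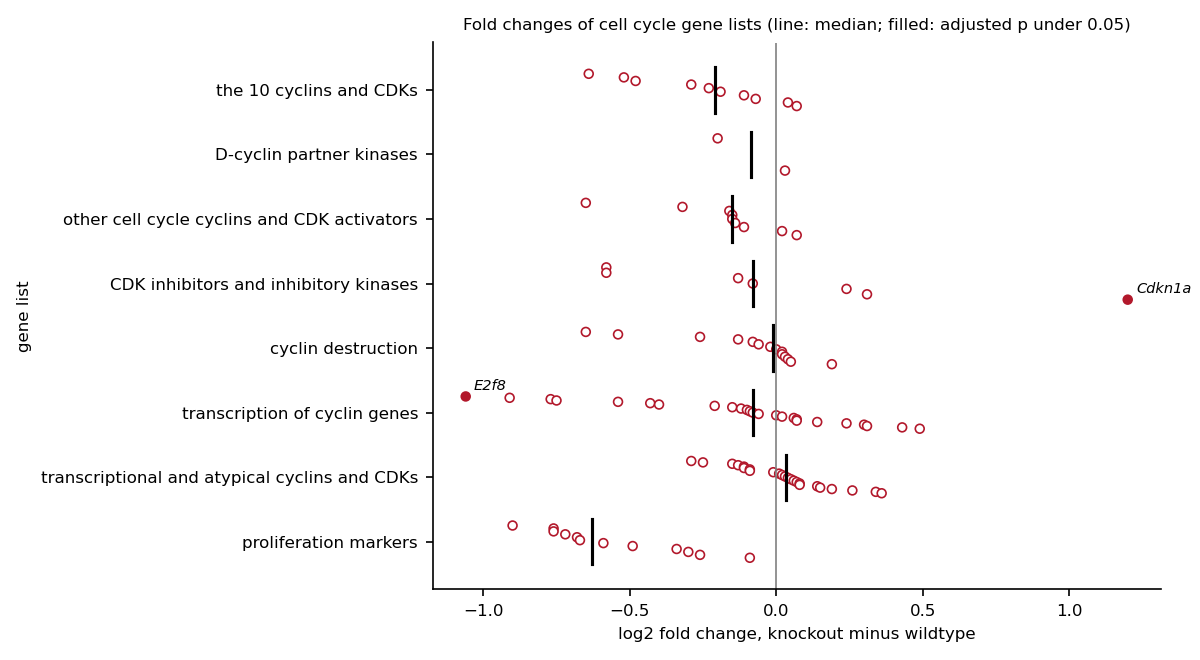
Log2 fold changes (knockout minus wildtype) of the 10 genes and of 7 cell cycle gene lists; each point is a gene, the black line is the list's median and filled points have an adjusted p under 0.05. Cdkn1a (1.2) and E2f8 (-1.06) are the filled points, and the 12 proliferation markers all lie left of 0.

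To describe which genes followed the members, Pearson's r was taken over the 6 libraries with 11700 other genes of a mean value of at least 50. The highest of so many values over 6 points are high by selection, and the points share their libraries and scaling, so r only ranks genes here. Closest to the mean profile of Ccna2, Ccnb1, Ccnb2 and Cdk1 were Ckap2, a spindle-associated protein (r = 0.998), Kifc1, a mitotic kinesin (0.995), and Plk1, a mitotic kinase (0.993). Plk1 had 79, 101 and 234 against 162, 113 and 175, the same split of knockout replicate 3 from replicates 1 and 2. Closest to Ccne1 and Ccne2 were Dhrs7 (0.999), Ubox5 (0.996) and Afmid (0.996). Dhrs7, a dehydrogenase, had 315, 391 and 272 against 493, 465 and 525 and was not called (log2 -0.61, limma, adjusted p = 0.0603).

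Cdk6 was closest of all compared genes to Ccnd2 (r = 0.996), ahead of Ppp1r3b and Fam136a (0.993 each). Nearest to Ccnd1 were Zfp560 (0.998), Cavin3 (0.98) and Ppia (0.979). Ccnd3 was followed by C1qbp and S100a13 (0.993 each). Nearest to Cdk2 were Casp6, a caspase (0.999), Lrrc4b (0.998) and Slfn9 (0.998). Of these, Slfn9, a member of the Schlafen family, was called lower with all 6 libraries (log2 -1.11, limma, adjusted p = 0.0282), as 0.942% of all genes were called. Slfn9 had 72, 101 and 64 against 173, 165 and 169, and it was picked for its likeness to Cdk2. Its call was lost without wildtype replicate 2 and without wildtype replicate 3, fits in which 0 genes were called.

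Counting could blur some of these values. Of the 10 members, 6 are overlapped by 7 other genes of the table, all on the opposite strand. The longest overlap was 5622 bases of Ccne2 with Ints8, whose values ran from 245 to 303, well above those of Ccne2. Exosc9 overlaps Ccna2 by 863 bases (268 to 326), and Pmel overlaps Cdk2 by 837 bases (23 to 51). The libraries were stranded, but whether counting used the strand is not given in the sources here. Annotated pseudogenes are named after Ccnb1, Ccnb2 and Ccnd3, so reads shared with such copies leave those values uncertain.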

How the data were processed

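Stranded mRNA libraries of 3 knockout and 3 wildtype samples were read from a single end over 72 bases, per the labels' protocols. Trimmomatic 0.39, STAR 2.7.11a, Picard 3.0.0, featureCounts 2.0.4, DESeq2 1.36.0 and the build mm39 are named by the submitters' processing notes, with no role or order. Values enter as a score, since the deposited numbers are whole numbers that the authors scaled by a factor per library and rounded. This was read from the values, in which certain whole numbers are skipped or doubly frequent at regular steps. The factors, estimated from values of 4 to 400, were 0.9371, 1.0384 and 0.8524 for knockout and 1.0423, 0.9568 and 1.1798 for wildtype replicates 1 to 3. Coverage of exons reached at most 0.925 recovered reads per base, and 0.163 among the members (Ccnd1).

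Testing used limma 3.58.1 (statmod 1.5.0, R 4.3.3) for genes at 10 or more in 3 or more libraries, on log2(value + 1), with trended and robust moderation, no covariate and Benjamini-Hochberg adjustment over all 14974 genes at 0.05. The scale understates changes of low genes. Fits were checked on simulated data in which no library was set apart as knockout replicate 3 was, so the check does not cover that feature. An exact permutation test of 3 against 3 libraries cannot go below p = 0.1 and was not used. The members, lists and rules were chosen with earlier results of these data known. All members were named, with Rbpms, Rbpms2, Cdk4, Cdk6 and Cdkn1a, then up to 4 called genes of each list or the one with the smallest p, and the 3 genes most like each profile, of which 1 is not reported here. Promoters came from RefSeq (GRCm38.p6) and exon lengths from GENCODE M21, and their coordinates were not joined to those of mm39. Alternatives covered the pseudocount, filter, scaling, moderation, voom, replicate block, sex and each library left out.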

Additional observations from a re-analysis of the deposited data

How the results depend on the processing

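The count of called genes, 141, was 218 with no filter on low values, 83 with a filter of at least 50 in 3 libraries, 73 by voom on recovered reads, 24 with no trend and no robust moderation, 256 in male libraries only and 223 when sex was a covariate. It ran from 0 to 727 when each library was left out in turn. The count of called members, 0 with all libraries, ran from 0 to 2 in those fits and was 1 in male libraries only. Of 170 member values under alternatives, 162 kept their direction and their side of the threshold, 4 passed it and 4 changed sign. With each library left out in turn the fold change ran from -0.76 to 0.18 for Ccnb1, from -0.52 to 0.13 for Ccnb2, from -0.08 to 0.20 for Ccnd2 and from -0.09 to 0.21 for Cdk6, which was -0.00379 with equal upper quartiles. Beyond the libraries left out, the cause of these shifts was not tested. Scaling to the trimmed mean of M-values was replaced by equal upper quartiles.

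With the replicate number as a block 23 genes and 0 members were called. Same-numbered libraries deviated from their group means with correlations of -0.169, -0.111 and -0.13, so the numbers are not taken to pair the samples, and no library correlated best with its own number. Values of 46 to 106 per library limit the precision of the fold changes of Ccne1 and Ccne2.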

Other observations

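Cyclins and CDKs that serve transcription or other tasks outside the cell cycle were measured in 24 tested genes. By limma 0 of them changed with all libraries, 0 without knockout replicate 3, and the median log2 fold change was 0.04. Fold changes of 15 were above 0 and of 9 below. Cdk12, a kinase of elongating RNA polymerase II, had the smallest p, with 391, 339 and 364 in the knockout and 258, 323 and 284 in the wildtype (log2 0.34, limma, adjusted p = 0.142). Its groups did not overlap, with the knockout higher, as in 11.0% of all genes.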
